A study of Mus musculus with 53 samples.

Results

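Tumors driven by the fusion gene SS18-SSX1 were compared with a mixture of normal mouse tissues on expression arrays. The comparison took every array titled SS with a number and every array titled Normal tissue mix, that is 12 tumor arrays and 4 mix arrays, 16 of the 53 arrays of the series. The tumors arose from embryonic mesenchymal cells (eMCs) of the limbs of BALB/c mouse fetuses. These cells received a retrovirus (pMYs) that carried a FLAG-tagged human SS18-SSX1 complementary DNA, and were placed under the skin of BALB/c nude mice, which lack mature T cells but keep other blood cells. No microRNA was added to them. Retroviruses integrate at varied sites of the genome. The samples may also hold vessels, blood cells, skin, fat and muscle of the host, but the origin of such signals was not tested. The mix held brain, lung, liver, heart, muscle, kidney, intestine, ovary, skin and bone marrow. The labels call it mouse tissue, and carry no strain, age or sex for it. Whether its 4 arrays came from separate pools is not stated, so p-values may rest in part on technical spread.

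Synovial sarcoma is a soft tissue tumor in which part of SS18, a subunit of the SWI/SNF (BAF) chromatin remodeling complex, is fused to the end of an SSX protein. The fusion protein redirects the remodeling complex and acts with Polycomb complexes on genes that both control. HOX genes, the hedgehog pathway and other regulators of the embryo are classical Polycomb targets.

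Before any test the tumor arrays were compared with each other. Tumors SS 24 and SS 29 were nearly identical, with an SD of their log2 difference over all probe sets of 0.147 and a correlation of 0.9979. The 6 pairs of mix arrays gave SDs from 0.129 to 0.179, and the other 65 pairs of tumor arrays gave 0.299 to 0.586. The 2 arrays were therefore averaged and counted as 1 sample, SS 24 and 29. This leaves 11 tumors (n = 11) against 4 mix arrays (n = 4) throughout. The mix arrays were as alike as SS 24 and SS 29 but were not averaged in the main comparison. If they repeat 1 pool, the standard errors and adjusted p-values below may be too small. A fit with the mix averaged into 1 control sample is given below as an alternative setting.

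Values are log2 of the deposited intensity of a probe set. A gene is represented by its brightest probe set, so levels of different genes are not comparable, whereas a gene can be followed across samples. Differences are tumor mean minus mix mean on the log2 scale, given with ± the standard error (SE) of the limma fit, so that 1 is a 2-fold change. A gene was called higher or lower when the Benjamini-Hochberg adjusted p of that fit was under 0.05 and the fold change over 2. The floor, an intensity of 11.7 (log2 3.55), is the level under which the dimmest 20% of probe sets of a typical array lie, and values near it carry no order.

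Of 17075 genes, 1775 (10.4%) were higher and 2214 (13.0%) were lower in the tumors. The median difference over all genes was 0.06. All tumors lay above all mix arrays for 26.3% of genes and below them for 19.4%, so a gap between the groups was common. Tumors correlated with each other at 0.966 to 0.992 and with mix arrays at 0.863 to 0.892. RNA quality moved with the groups. The Gapdh control has a probe set at each end of the transcript, and the signal at the 3′ end over that at the 5′ end, as a log2 ratio, was 0.346 at the lowest, 0.979 at the median and 1.43 at the highest in tumors, against 0.0377 to 0.0723 in the mix. The difference was 0.836 (exact permutation test, two-sided p = 0.00147, the smallest that 1365 arrangements allow). The ratio of every tumor lay above that of every mix array, so RNA quality and group cannot be told apart. A fit with this ratio as a covariate is given below as an alternative setting, and it cannot separate them either. The part of RNA quality in the differences below was not tested.

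The noncoding RNA *Dnm3os* was among the 10 genes with the largest rise. It read 8.91 at the lowest, 9.73 at the median and 10.59 at the highest in tumors, and 4.17, 4.10, 4.21 and 4.37 on the mix arrays. The difference was 5.58 ± 0.23 (adjusted p = 4.8e-13), and no tumor came near the mix. *Dnm3os* (GRCm38.p6, chr1:162217623-162225550) lies within *Dnm3* (chr1:161982450-162478321), which encodes the membrane-remodeling GTPase dynamin 3. The host gene itself went the other way, from 7.46 to 7.91 in the mix to 5.25 to 5.99 in tumors (-2.0 ± 0.14, adjusted p = 1.2e-09), although its 4 probe sets ranged from -2.0 to no difference. The study reported retroviral insertions within *Dnm3* in the tumors it numbered SS18, SS19 and SS23. The arrays with these numbers read 10.4, 8.906 and 9.675 for *Dnm3os*, and a part of the insertions in its level was not tested. *Dnm3os* carries the hairpins of miR-199a-2 and miR-214. The mature sequences (RefSeq, plus strand, 5′ to 3′) are shown because this transcript is their source, and the capitals mark the seed, bases 2 to 8, by which a microRNA finds its targets.

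mmu-miR-199a-5p (chr1:162217844-162217866): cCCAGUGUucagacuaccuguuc

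mmu-miR-199a-3p (chr1:162217883-162217904): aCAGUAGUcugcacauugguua

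mmu-miR-214-5p (chr1:162223397-162223418): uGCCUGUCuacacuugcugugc

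mmu-miR-214-3p (chr1:162223438-162223459): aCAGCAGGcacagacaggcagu

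The 4 seeds differ from each other. Mature microRNAs were not measured on these arrays, so that a high *Dnm3os* value is a statement on the host transcript. In the other tumors of the series, which carry added miR-214 (SS214, 13 arrays), *Dnm3os* read 7.27 to 10.28. In cultured tumor cells, here and below the control arrays (titled NC) of SS40 and SS64, *Dnm3os* was near the floor, with means of 4.03 and 3.62. It was 4.92 in eMCs harvested 48 hours after transduction with an empty virus. These are the eMCs of the values below, and are not the cells that formed the tumors.

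The other genes with the largest rises included several transcription factors. *Mycn*, a MYC family transcription factor, read 12, 12.29 and 12.66 at the lowest, median and highest tumor, and 5.53, 4.80, 4.77 and 4.97 in the mix. Its difference was 7.27 ± 0.13 (adjusted p = 1.4e-18), the largest rise of any gene, and its 3 probe sets ranged from 0.39 to 7.27. *Zic2*, a zinc finger factor of the early brain, rose by 6.59 ± 0.17, and *Foxc1*, a forkhead factor of mesenchyme, by 6.12 ± 0.24. *Dlk1*, an imprinted growth regulator of the Notch ligand family, rose by 5.97 ± 0.23. *Cartpt*, the precursor of the CART neuropeptide, rose by 5.90 ± 0.27, and *Cbln4*, a secreted synaptic protein, by 5.78 ± 0.29.

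*Gpr50* and *Ebf2* had the largest SDs among tumors of these 10 genes, 1.35 and 1.16, against 0.42 for *Gbx2*. *Gpr50*, an orphan receptor related to melatonin receptors, ranged from 6.43 in SS 5 to 10.72 in SS 30, with a median of 9.01. All 4 mix arrays lay under the floor (3.09, 3.15, 3.24 and 3.14), so the rise on this probe set was at least 42.8-fold. The 2 probe sets of *Gpr50* ranged from 0.76 to 5.82, so the rise rests on the brighter of them. *Gbx2*, a homeobox factor of the midbrain and hindbrain boundary, read 8.55 to 9.87 in tumors and 3.35 to 3.53 in the mix, all under the floor, a rise of at least 48.6-fold. *Ebf2*, a transcription factor of mesenchymal and fat precursors, ran from 7.49 to 10.97 around a median of 9.26 and rose by 5.48 ± 0.52. Its 3 probe sets ranged from 2.35 to 5.48. SS 5 was the lowest and SS 30 the highest tumor for both *Gpr50* and *Ebf2*.

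**Figure D1:**
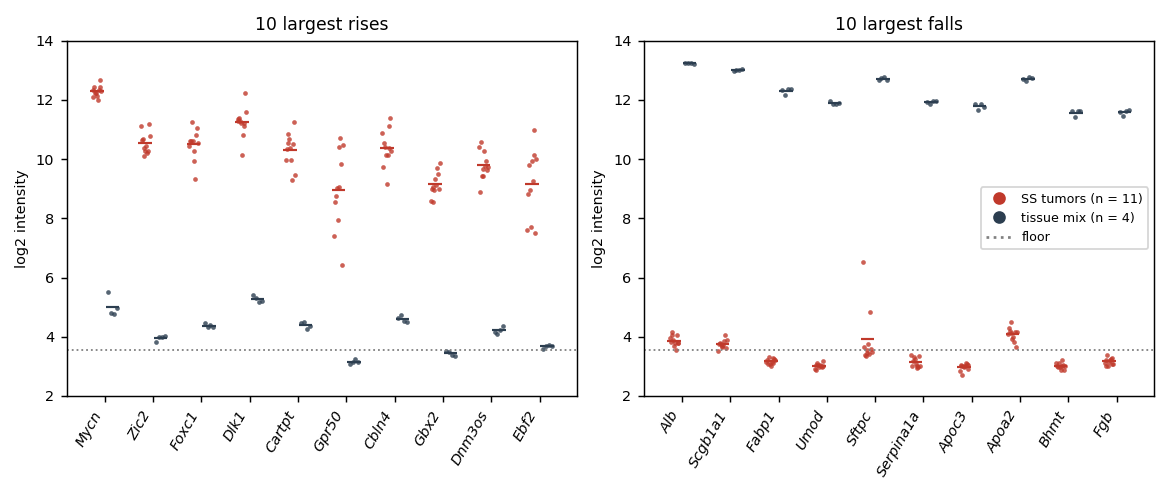
Log2 intensity of the 10 genes with the largest rise and the 10 with the largest fall, one point per sample (11 tumors, 4 mix arrays), with a horizontal bar at each group mean and a dotted line at the floor of 3.55. The groups are apart for every gene, *Gpr50* spreads from 6.43 to 10.72 among tumors, and *Sftpc* reaches 6.54 in SS 18 and 4.84 in SS 33.

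The pathway genes were read against the background of 10.4% higher and 13.0% lower. The hedgehog pathway passes a signal from a ligand (Shh, Ihh or Dhh) through the receptor Ptch1, which releases Smo and so activates the GLI transcription factors. Of its 13 measured genes, 9 were higher and none lower, with a median difference of 2.15. The ligands did not change past the threshold, at 0.21 for *Shh*, -0.08 for *Ihh* and 0.09 for *Dhh*, and all were dim in both groups. The receptor *Ptch1* read 10.39, 10.55 and 11.17 (lowest, median, highest) in tumors and 8.14, 8.46, 8.37 and 8.34 in the mix, a rise of 2.35 ± 0.13. Of the coreceptors, *Cdon* rose by 3.65 ± 0.18 and *Boc* by 3.17 ± 0.48, while *Gas1* differed by 0.05. *Boc* varied most among tumors, from 8.02 to 10.93, and its call was lost with the Gapdh ratio as a covariate.

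The signal transducers rose less, *Smo* by 1.2 ± 0.09 and the inhibitor *Sufu* by 1.15 ± 0.15. The *Sufu* call was lost with the mean over probe sets and with the Gapdh ratio as a covariate, and under that covariate 7 of the 13 pathway genes were higher. Among the transcription factors, *Gli1*, itself a target of the pathway, read 8.89, 9.33 and 10.05 in tumors and 5.13 to 5.22 in the mix. It rose by 4.21 ± 0.17 (adjusted p = 3.6e-13), beside *Gli2* at 3.00 ± 0.16 and *Gli3* at 2.15 ± 0.17. The hedgehog-binding inhibitor *Hhip*, another target, rose by 4.36 ± 0.17, from 5.38 to 5.70 in the mix to 9.20 to 10.58 in tumors. In SS214 tumors *Gli1* was 3.65 above the mix and *Hhip* 3.74. In culture *Gli1* was 4.79 (SS40) and 4.78 (SS64), at the level of eMCs (4.88) and of the mix, whereas *Hhip* was 7.29 in SS40, 3.84 in SS64 and 7.88 in eMCs.

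HOX genes, which set position along the body axis and the limb, were higher for 20 of 34 measured genes and lower for none (median difference 1.31). They stood in all 4 clusters, with 4 of 9 in Hoxa, 7 of 10 in Hoxb, 5 of 6 in Hoxc and 4 of 9 in Hoxd. *Hoxc8* read 9.64, 10.14 and 10.92 in tumors and 5.13, 5.25, 5.4 and 5.20 in the mix, and rose by 4.86 ± 0.18. *Hoxb9* rose by 4.29 ± 0.26 and *Hoxc4* by 3.56. Genes of the Hoxd cluster were uneven across tumors. *Hoxd13*, at the 5′ end of the cluster and active in the distal limb, ranged from 6.91 in SS 27 to 10.00 in SS 5 (4.68 ± 0.43). *Hoxd1*, under the floor on all mix arrays, ranged from 5.90 in SS 19 to 9.57 in SS 5 and was at least 13.4-fold higher. SS 5 had the highest and SS 27 the lowest mean over the HOX list, 7.54 and 6.26, against 5.05 to 5.10 in the mix.

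**Figure D2:**
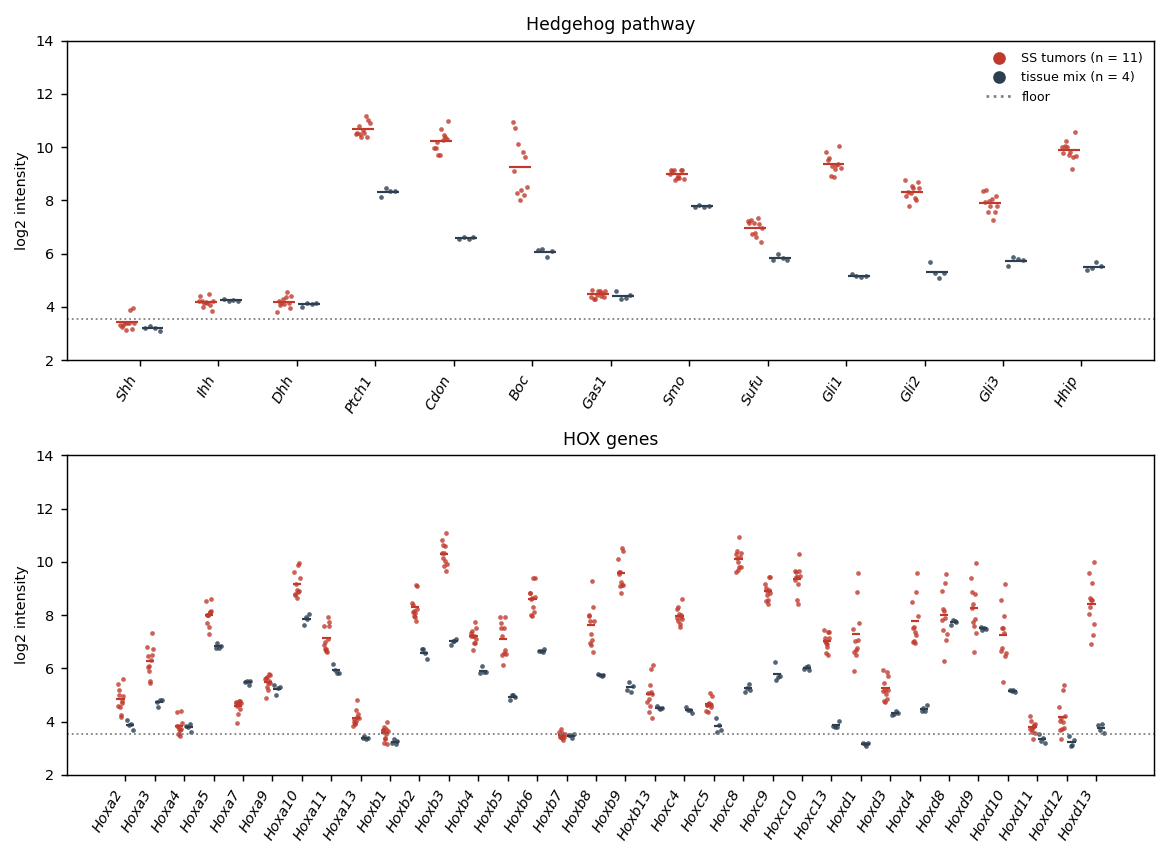
Log2 intensity of 13 hedgehog pathway genes (top, from ligands to targets) and 34 HOX genes (bottom, by cluster), one point per sample with bars at the group means and a dotted line at the floor. The 3 hedgehog ligands and *Gas1* overlap between tumors and mix, the other 9 genes do not, and the spread among tumors is wide for *Hoxd1*, *Hoxd4* and *Hoxd13*.

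Axon guidance molecules steer growing nerve fibers and migrating cells. Of 34 measured, 17 were higher and 1 was lower. Among secreted cues, *Reln*, the matrix protein reelin, was the most even, at 12.22, 12.43 and 12.53 in tumors and 7.57 to 7.70 in the mix (4.76 ± 0.06, adjusted p = 3.1e-20). *Ntn1* (netrin 1) rose by 3.72 ± 0.11 and *Slit2* by 2.43 ± 0.24. Of the receptors, *Epha3* rose by 4.60 ± 0.17, *Robo1*, a Slit receptor, by 3.75 ± 0.14, *Epha5* by 3.61 and *Ephb1* by 3.50. *Sema3e*, a repellent of axons and vessels, was the member called lower (-2.38 ± 0.13). The list mean lay between 7.42 and 7.69 in every tumor and between 6.07 and 6.12 in the mix. In the cultured lines it was 5.95 and 5.83, and *Reln* there was 5.83 and 5.74.

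The BMP and TGF-beta list held 10 higher genes and 1 lower gene of 21. The ligands *Tgfb3* (4.15 ± 0.22) and *Bmp7* (3.35 ± 0.10) rose most, followed by *Gdf10* (2.32 ± 0.37) and *Bmp4* (1.91 ± 0.15), whereas *Bmp6* fell (-1.18 ± 0.21). *Tgfb3* read 9.71 to 11.33 in tumors and 6.62, 6.67, 6.69 and 6.71 in the mix. The secreted inhibitors *Fst* (follistatin, 3.78 ± 0.27) and *Grem1* (1.78) were higher too, and *Nog* differed by 0.08. The targets *Id3* and *Id4* rose by 1.97 and 1.56, and *Id1* differed by 0.52.

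Of 29 Wnt ligands and receptors, 9 were higher and 1 was lower. The ligands *Wnt16* (3.84 ± 0.30), *Wnt11* (2.65 ± 0.15), *Wnt9a* (2.39 ± 0.21) and *Wnt5a* (2.35 ± 0.21) rose, and *Wnt2* fell (-1.72 ± 0.12). Of the frizzled receptors, 4 were higher, *Fzd10* by 1.96, *Fzd1* by 1.77, *Fzd4* by 1.66 and *Fzd2* by 1.56. The coreceptor *Lrp5* differed by 0.17. Of 15 Notch pathway genes, 3 were higher and 1 was lower. The target *Hes1* rose by 3.35 ± 0.13 and the ligand *Jag1* by 2.56 ± 0.28, while the receptors *Notch1*, *Notch2* and *Notch3* differed by 0.16, -0.05 and -0.05. *Notch4*, an endothelial receptor, fell (-1.43 ± 0.21).

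Growth factor genes were mixed. Of 21 FGF pathway genes 7 were higher and 2 lower. *Fgf9* rose by 2.05 ± 0.23 and the ERK-induced factor *Etv4* by 2.88 ± 0.30, while *Fgf1* fell (-3.21 ± 0.11). Of 35 receptor tyrosine kinases 7 were higher and 7 lower. *Ror1* (3.48 ± 0.15) and *Ror2* (2.24 ± 0.19), both receptors for *Wnt5a*, rose, as did *Fgfr1* (2.56 ± 0.13), the collagen receptor *Ddr2* (2.09 ± 0.11), *Ptk7* (1.99) and *Erbb2* (1.17 ± 0.13). Those that fell included the endothelial receptors *Tek* (-3.59 ± 0.20) and *Kdr* (-1.69) and the neural and Schwann cell receptors *Ntrk2* (-1.97) and *Erbb3* (-2.20 ± 0.18). *Pdgfra*, *Pdgfrb*, *Egfr* and *Igf1r* differed by 0.23, 0.01, -0.19 and 0.14.

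Of 11 oncofetal and imprinted genes, 6 were higher and none was lower. Beside *Dlk1*, the chromatin protein gene *Hmga2* rose by 4.62 ± 0.27, the maternally expressed noncoding RNA *Meg3* by 4.00 ± 0.11, and *Igf2*, a fetal growth factor, by 3.54 ± 0.18. For *Meg3*, 1 of 10 probe sets was called in the other direction. *Plagl1* and *Cdkn1c* rose by 2.13 ± 0.14 and 2.12 ± 0.30. *Igf2bp1* (-0.06), *Igf2bp3* (0.09) and *Peg3* (0.09) were not called.

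**Figure D3:**
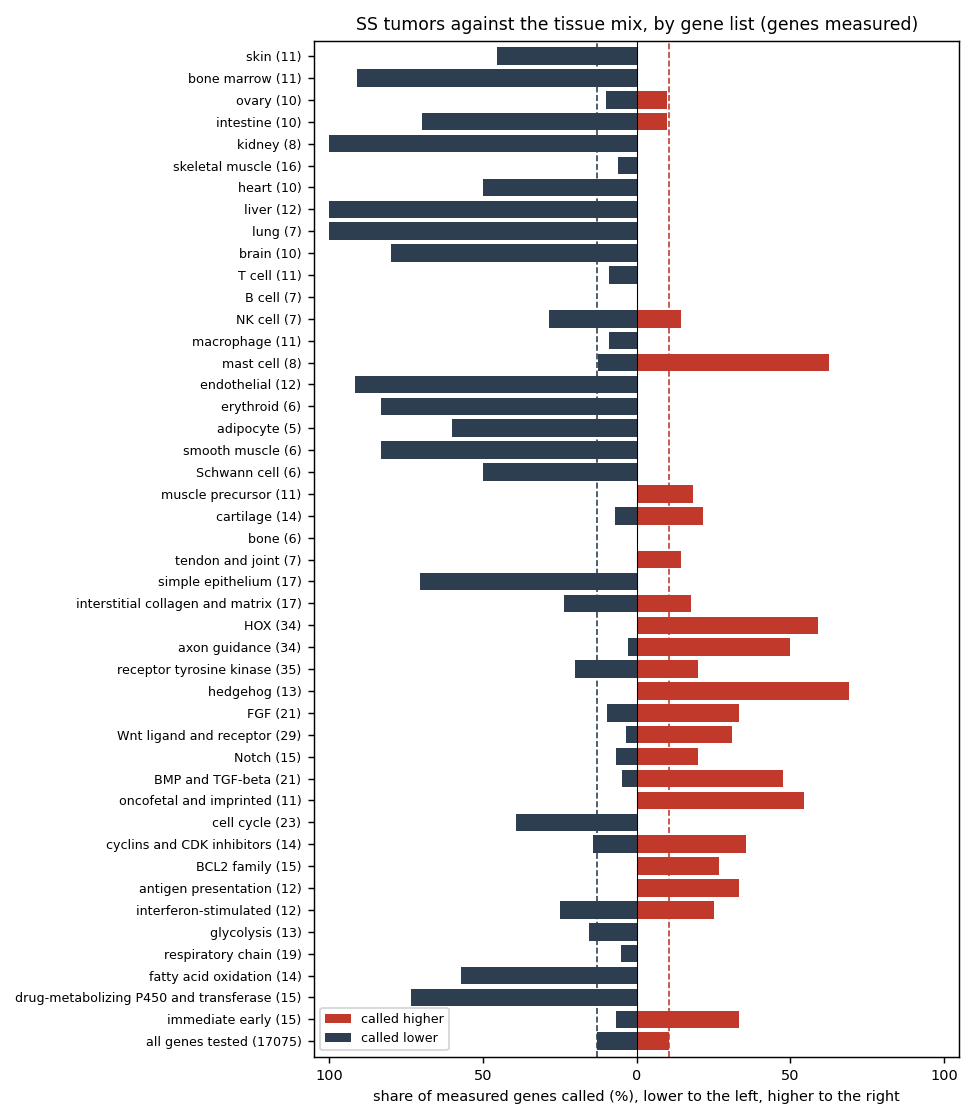
Share of the measured genes of 45 lists that were called higher (right) or lower (left) in tumors, with the number measured in brackets and dashed lines at the shares over all 17075 genes (10.4% higher, 13.0% lower). Hedgehog, mast cell and HOX lists reach furthest to the right, and every measured kidney, liver and lung gene is on the left.

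The 10 genes with the largest falls all belong to liver, lung, kidney or intestine. *Alb*, the blood protein albumin, read 3.56 to 4.16 in tumors and 13.26, 13.24, 13.25 and 13.22 in the mix (-9.37 ± 0.10, adjusted p = 4.5e-21). *Fabp1*, the fatty acid binding protein of liver and intestine, lay under the floor in every tumor and was at least 434-fold lower. The kidney gene *Umod* was at least 324-fold lower, and the liver genes *Serpina1a*, *Apoc3*, *Fgb* and *Bhmt* at least 334-fold, 300-fold, 262-fold and 261-fold. The lung genes *Scgb1a1* and *Sftpc* fell by 9.26 and 8.81. *Sftpc*, surfactant protein C, was 6.54 in SS 18 and 4.84 in SS 33 against a median of 3.54. In SS214 tumors it ran from 3.77 to 11.83.

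Genes of most organs in the mix were lower in the tumors. All 12 liver, 8 kidney and 7 lung genes measured were lower, as were 10 of 11 bone marrow, 8 of 10 brain, 7 of 10 intestine, 5 of 10 heart and 5 of 11 skin genes. In these bulk samples, fewer cells of a type and less RNA per cell cannot be told apart. Of 16 skeletal muscle genes 1 was lower. Their mean was 11.81 to 11.87 in the mix and 11.04 to 12.05 in 9 tumors, with lower values of 9.78 in SS 30 and 9.55 in SS 24 and 29. This gene was *Myoz1*, a Z-disc protein (-1.18 ± 0.47, adjusted p = 0.046), a call that was lost under 17 of 31 alternative settings. *Ckm*, muscle creatine kinase, was 10.20, 12.25 and 12.84 in tumors and 12.68 to 12.72 in the mix. Muscle genes were near the floor in culture, with list means of 4.46 in SS40, 4.43 in SS64 and 5.11 in eMCs. The muscle list was thus brighter in every tumor than in the cultured cells.

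Whether muscle signal went with other tumor features was asked of 3 relations. Over all 11 tumors the muscle mean had r = 0.69 with the matrix list (permutation p = 0.019, Benjamini-Hochberg adjusted over the 3 relations 0.056; rho = 0.62, p = 0.049, adjusted 0.15), and r = 0.58 without SS 28 and SS 30, the tumors farthest from the median of the matrix mean. With the Gapdh ratio r was 0.22 (permutation p = 0.52, adjusted 0.78; rho = 0.40, p = 0.23, adjusted 0.34) and -0.34 without SS 24 and 29 and SS 27. With the endothelial list r was 0.07 (permutation p = 0.83, adjusted 0.83; rho = -0.03, p = 0.95, adjusted 0.95) and 0.12 without SS 5 and SS 23. SS 30 and SS 24 and 29 stood apart from the rest by their low muscle mean, a split seen in the data. Across the other 9 tumors the muscle mean had r = 0.53 with the Gapdh ratio (permutation p = 0.14, Benjamini-Hochberg adjusted 0.41; rho = 0.65, p = 0.067, adjusted 0.20). With the matrix list r was 0.16 (permutation p = 0.67, adjusted 0.83; rho = 0.32, p = 0.41, adjusted 0.58), and with the endothelial list -0.09 (permutation p = 0.83, adjusted 0.83; rho = -0.22, p = 0.58, adjusted 0.58). None of the 6 values of r had an adjusted p under 0.05. The r with the matrix list was smaller without the 2 tumors of low muscle mean. Leaving them out also narrows the range of the muscle mean, which tends to lower r, so the drop does not show what the relation rests on.

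The mean over the ovary genes was 4.61 in the mix and 4.50 to 4.79 in tumors, and of the 10 genes 1 was higher, *Inha*, an inhibin subunit (2.07 ± 0.27), and *Foxl2*, a granulosa cell factor, was lower (-1.42 ± 0.13). *Cdx2*, a homeobox gene in the intestine list and also a regulator of HOX genes in the embryo, was higher in tumors at 9.04, 9.50 and 10.19 against 6.70, 6.58, 6.51 and 6.56 (3.01 ± 0.19).

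Of 8 mast cell genes, 5 were higher and 1 was lower. *Tpsab1*, a mast cell tryptase, read 7.77, 9.44 and 10.19 in tumors and 3.99, 3.88, 3.95 and 3.94 in the mix (5.37 ± 0.34). The chymase gene *Cma1* rose by 3.52 ± 0.35, the carboxypeptidase *Cpa3* by 2.37 ± 0.36, and the proteases *Tpsb2* and *Mcpt4* by 1.87 ± 0.39 and 1.24 ± 0.20. The receptor *Kit* was lower (-1.11 ± 0.16), and the IgE receptor genes *Ms4a2* and *Fcer1a* differed by 0.45 and 0.89. The list mean was 5.53 to 7.61 in tumors, 4.84 to 4.90 in the mix, and 4.10 to 4.21 in eMCs and both cultures.

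Endothelial genes were lower for 11 of 12, with all tumors below all mix arrays for every member. *Tek* fell most, followed by *Cldn5*, a tight junction protein (-3.16 ± 0.23), *Vwf* (-2.40), *Cdh5* (-2.35 ± 0.26) and *Pecam1* (-2.34 ± 0.24). Still, the list mean in tumors (5.14 to 6.34) was above that of both cultures (4.63 and 4.51). Smooth muscle genes were lower for 5 of 6, led by *Actg2* (-6.91 ± 0.12) and with *Acta2* at -3.83 ± 0.28. Erythroid genes were lower for 5 of 6, with *Slc4a1*, the anion exchanger of red cells, at -7.10 ± 0.14. Of 6 Schwann cell genes 3 were lower. Of 5 adipocyte genes 3 were lower, but 2 without any one mix array and 0 with the mix averaged into 1 control sample, with *Adipoq* among the 3 (-1.96 ± 0.75, adjusted p = 0.038, with tumors from 5.61 to 11.22). The *Adipoq* call was lost under 11 of 31 alternatives, among them leaving out any one mix array.

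Simple epithelial genes were lower for 12 of 17 (median -2.66) than in the mix, which holds intestine, kidney, lung and skin. The list mean was 5.88 to 6.67 in tumors, above SS40 (4.99), SS64 (4.41) and eMCs (5.09). *Krt7* and *Krt19*, keratins of ducts, fell by 5.89 and 5.62, and *Cdh1* (E-cadherin) by 4.61. *Krt8* and *Krt18* fell by 3.75 and 2.66 but stayed well above the floor, with tumors at 6.77 to 9.03 and 7.12 to 9.10. *Epcam*, an adhesion molecule of epithelia, read 7.25, 8.49 and 9.25 in tumors and 10.80 to 10.87 in the mix and fell by 2.58. It was 5.11 and 4.92 in the cultured lines. Members that were not called included the protease inhibitors *Spint1* (0.43) and *Spint2* (0.35) and the epithelial splicing regulator *Esrp2* (-0.68).

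Lymphoid and macrophage genes were read against the shares over all genes, 10.4% higher and 13.0% lower. In the T cell list 1 of 11, in the B cell list none of 7 and in the macrophage list 1 of 11 passed the test, all lower. These shares are no larger than that of all genes. The NK cell list had 1 higher (*Eomes*, 1.70 ± 0.33) and 2 lower of 7. The tumors differed widely. SS 22 and SS 23 had the highest means for T cell (5.09 and 5.36), B cell (5.68 and 5.96), NK cell (5.04 and 5.55) and macrophage genes (7.01 and 7.67), against 4.04, 3.62, 3.95 and 5.41 in SS 5. In the mix the T cell mean was 4.37 to 4.45 and the macrophage mean 6.50 to 6.56. *Cd3e*, a chain of the T cell receptor complex, was 7.03 in SS 22 and 5.48 to 6.31 elsewhere. At an unadjusted p under 0.05 of the limma fit, 1 B cell gene was lower and none was higher.

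The genes with the largest SD among tumors were of the same kind. They were the neutrophil genes *S100a8* (SD 2.66) and *S100a9* (2.23), the B lineage genes *Jchain* (2.44), *Igkj1* (2.16) and *Ms4a1* (2.11), the T cell gene *Ms4a4b* (2.18), the chemokines *Cxcl9* (2.24) and *Cxcl13* (2.17), and the interferon-induced GTPase *Iigp1* (2.31). SS 23 was the highest tumor for these 9 genes. *Ms4a1* (CD20) was 9.22 in SS 22 and 9.54 in SS 23 and 3.46 in SS 5, with 4.92 to 5.22 in the mix. *S100a8* ran from 3.53 to 10.74 and stayed below the mix (12.70 to 12.76) in every tumor. The tenth gene, *Car12*, a carbonic anhydrase, was 10.82 in SS 5 and 3.62 to 4.50 in the other 10 tumors, against 8.11 to 8.43 in the mix. Its difference was -3.69 ± 0.94 over all tumors and -4.32 without SS 5.

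Skin genes singled out other tumors. The skin mean was 7.70 in SS 20 and 5.68 in SS 18, and 4.13 to 4.34 in the remaining 9, against 6.27 to 6.35 in the mix. *Krt14*, a basal keratin, was 7.42 in SS 20 and 4.65 in SS 18, with a median of 3.66. In SS 27 the bone mean was 5.37, against 4.05 to 4.48 elsewhere, and *Phex*, an osteoblast and osteocyte peptidase, was 6.85 there. SS 28 had the highest tendon and joint mean, 6.72.

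**Figure D4:**
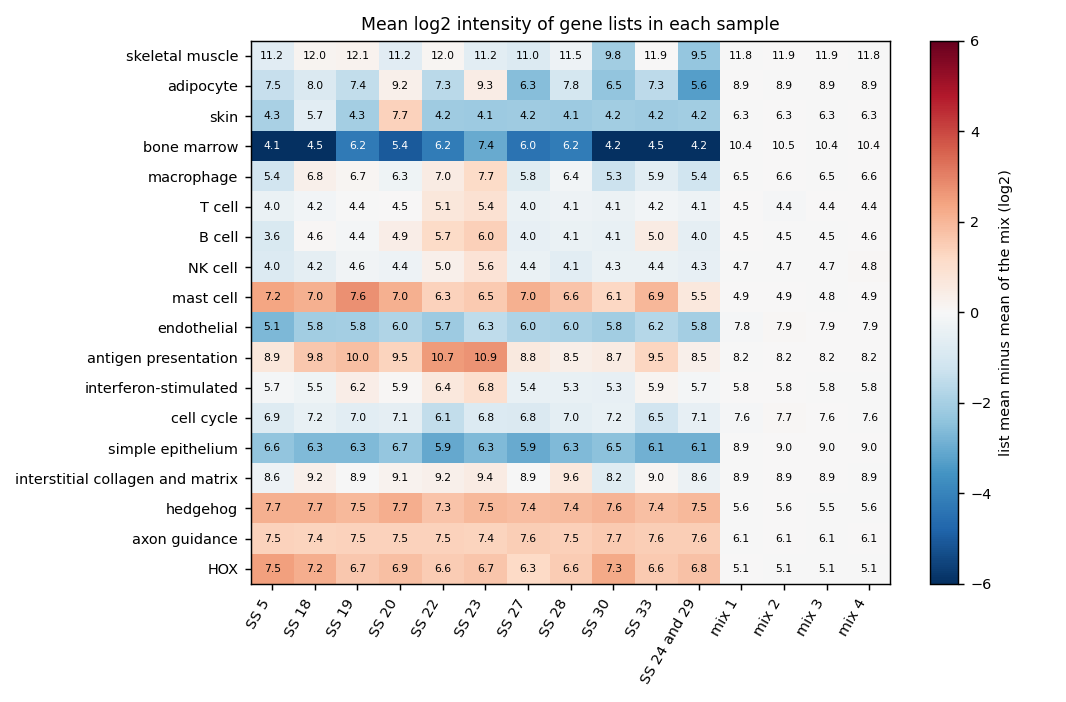
Mean log2 intensity of 18 gene lists (printed in each cell) in the 11 tumors and 4 mix arrays, colored by the difference from the mean of the mix arrays (log2, red higher, blue lower). Hedgehog, axon guidance and HOX rows are red in every tumor, immune rows are red in SS 22 and SS 23, and muscle is lowest in SS 30 and in SS 24 and 29.

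Of mesenchymal programs, cartilage was selective: 3 of 14 genes were higher and 1 was lower. *Col2a1*, the main cartilage collagen, read 8.71, 9.16 and 10.02 in tumors and 3.95, 4.18, 4.27 and 4.21 in the mix (5.09 ± 0.17). *Comp* rose by 3.73 ± 0.25 and the link protein *Hapln1* by 3.50 ± 0.22. *Acan* (0.07), *Col11a2* (0.08) and *Col9a3* (-0.06) did not pass the test, and *Col9a1* fell (-1.22 ± 0.08). The eMCs with an empty virus had a cartilage list mean of 10.71 and *Col2a1* at 13.04, the cultures 4.65 and 4.18 for *Col2a1*. Of 11 muscle precursor genes, the satellite cell factor *Pax7* (3.12 ± 0.25) and *Chrna1* (1.66 ± 0.32) were higher, and *Myod1* (0.54) and *Myog* (0.55) were not called. No bone gene of 6 passed the test (1, *Phex*, was higher at an unadjusted p under 0.05 of the limma fit), and of 7 tendon genes *Tnmd* did (1.04 ± 0.30).

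Interstitial collagen and matrix genes were higher for 3 and lower for 4 of 17. *Tnc* (tenascin C, an embryonic and wound matrix protein) rose by 3.38 ± 0.24, the fetal fibrillin *Fbn2* by 1.88 ± 0.28 and *Col1a1* by 1.34 ± 0.28. *Col6a3* and *Col6a1*, chains of collagen VI, fell (-1.96 ± 0.32 and -1.48 ± 0.37), as did *Fn1* (-1.18) and *Lum* (-1.16). The count of 4 lower genes was 1 when the mix arrays were averaged into 1 control sample and 2 with the Gapdh ratio as a covariate.

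Proliferation genes were not higher than in the mix, which holds dividing bone marrow, gut and skin. Of 23 cell cycle genes, none was higher and 9 were lower (limma; 2 and 17 at an unadjusted p under 0.05). *Mki67*, a mark of cycling cells, read 7.54, 7.96 and 8.56 in tumors and 9.52, 9.69, 9.70 and 9.73 in the mix (-1.72 ± 0.15). *Birc5* (-1.42 ± 0.24), *Aurka* (-1.34 ± 0.26) and *Plk1* (-1.32 ± 0.15) fell as well, while replication genes such as *Mcm2* (0.32) and *Pcna* (-0.28) were not called. The list mean was 6.14 to 7.18 in tumors, 7.56 to 7.71 in the mix and 9.66 and 9.60 in the cultured lines. With the mix averaged into 1 control sample 4 genes were called lower.

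Upstream of division, 5 of 14 cyclins and CDK inhibitors were higher and 2 lower. *Ccnd2* rose by 2.84 ± 0.10 and *Ccnd1* by 1.42 ± 0.06, and *Ccnd3* differed by -0.14. The inhibitor locus *Cdkn2a* rose by 2.78 ± 0.27, from 3.63 to 3.99 in the mix to 5.95 to 7.69 in tumors, and reached 11.25 and 10.42 in the cultured lines. *Cdkn1a* rose by 1.01 ± 0.13, while *Cdk6* (-1.03 ± 0.19) and *Rb1* (-1.07 ± 0.12) fell, all 3 close to the 2-fold threshold. In the BCL2 family, 4 of 15 genes were higher, and all 4 encode cell death promoters of the BH3-only class: *Bcl2l11* (2.04 ± 0.16), *Pmaip1* (2.04 ± 0.27), *Bbc3* (1.31 ± 0.15) and *Bad* (1.13 ± 0.11). *Bcl2*, the survival gene after which the family is named, differed by 0.51 (adjusted p = 0.034), under 2-fold, and the survival genes *Bcl2l1* and *Mcl1* by -0.21 and -0.29. The further BH3-only genes *Bid*, *Bik* and *Hrk*, at -0.88, -0.05 and -0.21, were not called.

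Antigen presentation genes were higher for 4 of 12 and lower for none. *Nlrc5*, the activator of class I genes, rose by 2.86 ± 0.52, the chaperone *Tapbp* by 1.90 ± 0.11, and the immunoproteasome genes *Psmb9* and *Psmb8* by 1.82 ± 0.37 and 1.18 ± 0.39. The count of higher genes varied with the samples and the fit, at 7 of 12 without SS 24 and 29, and 1 of 12 with the mix averaged or with the Gapdh ratio as a covariate. SS 22 and SS 23 had the highest means, 10.72 and 10.89, and *Nlrc5* at 8.89 and 9.07, together with the highest immune cell lists, and 3 genes were called without these 2 tumors. *Tapbp*, by contrast, was 11.31 to 12.05 in all tumors and 9.82 to 9.88 in the mix. Interferon-stimulated genes went both ways, 3 higher (*Irf9*, *Oasl2* and *Usp18*, by 1.51, 1.51 and 1.02) and 3 lower of 12, with *Rsad2*, an antiviral enzyme, at -3.52 ± 0.30.

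Of 15 drug-metabolizing P450 and transferase genes 11 were lower, up to *Cyp3a11* (-8.36 ± 0.10), and of 14 fatty acid oxidation genes 8 were lower, led by the peroxisomal enzyme *Ehhadh* (-4.33 ± 0.12) and its regulator *Ppara* (-3.13 ± 0.19). In the other metabolic lists, 1 of 19 respiratory chain genes (*Cycs*, cytochrome c, -1.24 ± 0.14) and 2 of 13 glycolysis genes (*Hk2*, -1.38 ± 0.37, and *Aldoc*, -1.10 ± 0.33) were lower, and none of either list was higher. The share of glycolysis genes lower is near the 13.0% of all genes, and at an unadjusted p under 0.05 of the limma fit 17 of 19 respiratory chain genes were lower. The respiratory chain mean was 10.77 to 11.11 in tumors and 11.37 to 11.38 in the mix, below it in every tumor though by less than 2-fold for nearly all genes. Immediate early genes, which also respond to tissue handling, were higher for 5 of 15, *Atf3* by 3.00 ± 0.34 and *Fos* by 1.49 ± 0.20, and lower for *Ier3* (-1.26).

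Of the genes the study follows, *Sox2*, a stem cell factor, rose by 2.78 ± 0.25, *Apod* (apolipoprotein D) by 2.70 ± 0.43 and *Tle1*, a corepressor used as a marker of human synovial sarcoma, by 2.43 ± 0.08. *Tle1* was 10.39, 10.60 and 10.91 in tumors and 8.10 to 8.23 in the mix, among the tightest of these genes. Against the mix *Egr1* rose by 1.24 ± 0.17, and *Igf1* by 1.10 ± 0.11 with 1 of its 4 probe sets called the other way. *Atf2* (0.67 ± 0.10, adjusted p = 2e-05) and *Ctnnb1* (beta-catenin, 0.39 ± 0.04, adjusted p = 7.6e-08) passed the adjusted p but differed by less than 2-fold. The 3 probe sets of *Ctnnb1* went both ways, from -0.33 to 0.39. The study set tumors beside eMCs by RT-qPCR instead, and reported *Egr1* as suppressed and *Atf2* as increased. On these arrays eMCs with an empty virus had a mean of 11.83 for *Egr1*, above the tumor mean of 9.61. For *Atf2* the eMC mean was 8.45, below the tumor mean of 9.79. *Sox2* was 3.28 in SS40 and 10.74 in SS64, and *Apod* 4.39 and 10.36, so that the 2 lines lay on either side of the tumor range for *Sox2*.

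The cultures, described without a test, help to place the tumor genes. SS40 and SS64 are 2 lines of mouse synovial sarcoma cells, so that each stands for 1 line only. The 4 arrays used of each are titled NC and are the controls of arrays titled miR-214. *Cartpt*, *Gpr50*, *Cbln4*, *Gbx2*, *Dnm3os* and *Ebf2* had means of 3.42 to 4.23 in both lines, that is, at or near the floor. *Mycn* was 7.24 in SS40 and 5.49 in SS64 but 12.60 in eMCs with an empty virus, and *Dlk1* 6.92, 5.11 and 10.69. *Foxc1* was 10.29 in eMCs, within the tumor range of 9.34 to 11.25. *Zic2*, at 5.48 in eMCs, 7.15 in SS40 and 4.25 in SS64, was below every tumor in all 3. *Hmga2* was the reverse, with 10.43, 11.70 and 10.81 in SS40, SS64 and eMCs, all within the tumor range of 9.52 to 11.80.

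**Figure D5:**
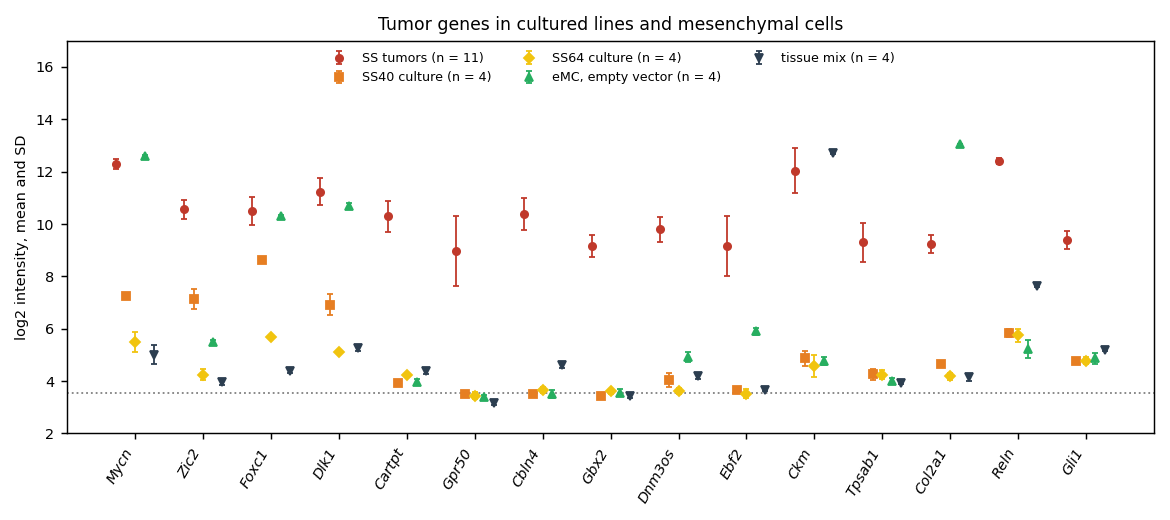
Mean log2 intensity with SD (bars) of the 10 genes with the largest rise and of *Ckm*, *Tpsab1*, *Col2a1*, *Reln* and *Gli1* in 11 tumors, SS40 and SS64 cultures, eMCs with an empty virus and the tissue mix (4 arrays each), with a dotted line at the floor. *Mycn*, *Foxc1* and *Dlk1* are high in tumors and eMCs, *Col2a1* is highest in eMCs, and *Cartpt*, *Gpr50*, *Cbln4* and *Gbx2* are high in tumors alone among these 5 groups. SS214 tumors are not drawn, and their means for these last genes were 9.52, 9.11, 10.29 and 9.01.

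SS214 tumors, compared with the same mix arrays in a fit of their own, gave 1650 higher genes (9.66%) and 2069 lower genes (12.1%). Since the mix arrays are shared, the values are set side by side without a count of overlap. *Mycn* was 5.98 above the mix in SS214 tumors, *Zic2* 6.27, *Gbx2* 5.58, *Hoxc8* 4.25, *Reln* 4.14, *Tpsab1* 5.76 and *Col2a1* 4.55. *Cartpt* was 5.12 above the mix there, *Gpr50* 5.96 and *Cbln4* 5.69. Of 34 HOX genes 22 were higher, of 13 hedgehog genes 8, of 34 axon guidance genes 14, and of 8 mast cell genes 6. Cell cycle genes were lower for 2 of 23, and adipocyte genes for none of 5.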

How the data were processed

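Total RNA of 12 tumors and 4 tissue mix arrays was profiled on Affymetrix mouse arrays. The authors deposited 1 linear intensity per probe set and array (5.36 to 11034). The submitters' processing notes name MAS5 without a version, while the study's methods name GeneSpring, so the summary method is not settled. The methods, from which the organs of the mix were taken, call it human, whereas the labels say mouse.

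Intensities were log2-transformed without further scaling. Array medians ran from 22.6 to 25.9 in tumors and from 26.0 to 26.1 in the mix, and the number of arrays limits the precision. The comparison was planned on 12 tumors, and SS 24 and SS 29 were averaged once their near identity was seen. Of 45141 probe sets, 104 controls were left out, and limma 3.58.1 in R 4.3.3 (lmFit, eBayes with trend) tested 45037 with Benjamini-Hochberg adjustment over all. Of these, 28898 had 1 gene symbol (17075 genes), 551 several and 15588 none in the platform annotation, and 28689 symbols were updated by gene ID. Data for this comparison were also simulated, with independent normal noise, no difference in RNA quality, and changes placed only in brighter probe sets. There 99 of 100 probe sets changed 3-fold and 50 of 50 changed 8-fold passed the adjusted p and the 2-fold limit, and 0 of 44837 unchanged ones did. Of 50 changed 1.5-fold, 26 passed the adjusted p and 0 both limits, and 5 unchanged ones passed the adjusted p. Dim probe sets with a change were not simulated.

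The genes named were the 10 largest rises and falls among non-overlapping genes above the floor, up to 4 called members and the first members of each of 45 lists (621 of 694 entries measured), the 10 largest SDs among tumors, and genes the study names. Further list members were added after their values were seen. The members and lists were chosen with earlier results of these data known. A planned comparison of promoter sequence was void, since 79.1% of higher and 77.7% of lower genes had a window and 80% were required. Relations between tumors used 100000 permutations. Alternatives changed the floor, scaling, probe set summary, test, samples and covariates.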

Additional observations from a re-analysis of the deposited data

Results flagged for a closer look

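Among 256 values of named genes and lists, 18 (7.03%) had 1 mix array far from the other 3: its gap to the nearest array took up more of the range of the 4 than about 1 in 20 groups show by chance. For genes the share of the range in that gap was 0.841 for *Nog*, 0.973 for *Fzd10*, 0.850 for *Erbb3*, 0.854 for *Igf2bp1*, 0.876 for *Igf2bp3*, 0.887 for *Fabp1*, 0.869 for *Bhmt*, 0.931 for *Acta2*, 0.863 for *Adipoq*, 0.833 for *Mki67*, 0.838 for *Plk1*, 0.847 for *Nlrc5* and 0.897 for *Sox2*. For list means it was 0.880 for heart, 0.916 for NK cell, 0.889 for adipocyte, 0.833 for HOX and 0.926 for fatty acid oxidation. In log2 intensity *Acta2* ran from 12.16 to 12.19 in the mix and *Mki67* from 9.52 to 9.73, while *Sox2* was 6.47 on 1 array and 7.07 to 7.14 on the other 3.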

How the results depend on the processing

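Across 32 alternatives the number of higher genes ran from 1341 (mean over the probe sets of a gene) to 2036 (arrays centred on the median) and that of lower genes from 1903 (mix averaged into 1 control sample) to 2402 (any probe set called), apart from 5745 higher and 4314 lower without a fold threshold. Leaving out 1 array at a time gave 1726 to 1824 higher and 2167 to 2259 lower genes, and keeping the 12 tumor arrays apart gave 1801 and 2242. The methods' t-test gave 1775 and 2215 at its unadjusted threshold and 1765 and 2188 after Benjamini-Hochberg adjustment. With the Gapdh 3′ to 5′ ratio as a covariate 1861 and 2338 were called. The fits without SS 22 and 23 (1858 and 2269), without SS 18 and 20 (1805 and 2220), without SS 24 and 29 (1749 and 2199) and with 12 tumor arrays were chosen after seeing the data. No scaling moved the median of all genes by more than 0.0722.

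No called gene among those named changed sign. Of 162 called genes named, 37 lost their call under some alternative, 24 of them with the mix averaged (*S100a8*, *Nlrc5*, *Col1a1* and *Tpsb2* among them), 16 with the mean over probe sets (*Dnm3*, *Igf1* and *Plagl1* among them) and 14 with the ratio covariate (*Boc*, *Erbb2* and *Sufu* among them). Of genes named but not called, 11 changed sign under some setting, and with the ratio covariate *Cxcl9* went from 1.48 to -1.31 and *Ms4a1* from 1.03 to -1.21. Single arrays decided calls near the threshold: *Adipoq*, *Cxcl13* and *Myoz1* without any one mix array, *Adipoq* also without SS 19, 22, 27, 30 or 33, *Cxcl13* without SS 18, 19, 20, 22, 23, 28 or 33, *Myoz1* without SS 5, 20, 23, 27, 28 or 30, *Lum* without mix 1, 2 or 3, *Tnmd* without mix 2, SS 18 or SS 28, *Cdkn1a* without mix 1, SS 19 or SS 33, *Usp18* without SS 19, SS 22 or SS 23, *Cdk6* without SS 30 and *Aldoc* without SS 27. With 1 array left out at a time the difference was -2.19 to -1.80 for *Adipoq*, 2.12 to 2.71 for *Cxcl13* -1.32 to -1.04 for *Myoz1*, -1.30 to -1.03 for *Lum*, 0.89 to 1.14 for *Tnmd*, 0.96 to 1.05 for *Cdkn1a*, 0.95 to 1.09 for *Usp18*, -1.11 to -0.96 for *Cdk6* and -1.20 to -0.97 for *Aldoc*.

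Of 37 list counts, 14 moved by over 1.5 times under some setting. With the mix averaged, the lower counts were 2 for skin, 0 for adipocyte, 1 for matrix, 4 for cell cycle and 1 for interferon-stimulated genes, and the higher counts 1 for antigen presentation and 1 for interferon-stimulated genes. With the ratio covariate, matrix had 2 lower, Notch 5 higher and antigen presentation 1 higher. Without SS 24 and 29 antigen presentation had 7 higher. Without a fold threshold the higher counts were 5 for cartilage, 7 for matrix, 14 for Wnt, 6 for Notch, 9 for cyclins and CDK inhibitors, 7 for the BCL2 family, 5 for interferon-stimulated and 10 for immediate early genes, with 14 lower for cell cycle. The cause of these shifts was not tested. The Gapdh ratio difference was 0.828 to 0.840 without each mix array, and 0.457 with the Actb control.

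No paired analysis was possible because the labels match no tumor to a mix array. For genes near the floor in both groups the arrays give no measurable difference.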
